A study of Rattus norvegicus with 48 samples.

Results

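Advanced hepatocellular carcinomas (aHCC) were compared with early liver nodules rich in the transcript of Krt19, the cytokeratin-19 gene, on single-colour Illumina rat arrays. The aHCC were the 9 samples titled as such, numbered 28 to 36 and taken 14 months after initiation. The nodules were the 10 of 20 nodules, taken 10 weeks after initiation, that were selected on a log2 intensity of Krt19 above 11 on these same arrays, numbered 1 to 5 and 15 to 19. Together they made 19 of the 48 arrays in the series. All lesions came from male F-344 rats under one carcinogenesis regimen. DENA (diethylnitrosamine) was injected intraperitoneally at 150 mg/kg, and after 2 weeks of recovery the rats ate food with 0.02% 2-acetylaminofluorene for 1 week, underwent partial hepatectomy and returned to that food for 1 more week. Controls 25 to 27 and 11 to 14 were control livers with sample numbers beside the aHCC and beside the nodules; the labels give no age for them, and word the regimen identically for every sample, so what the controls received is not stated. The other 10 nodules, 4 adenomas and 5 early carcinomas (eHCC), the last 2 groups from 10 months, are used to place the values, and the other nodules also in tests against all 20 nodules. These groups also entered alternative fits over all 48 arrays. Lesions were laser-microdissected from stained frozen sections, and the labels do not tie them to animals. Where some lesions came from the same rat, the p-values are too small.

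In this rat protocol an initiating carcinogen is followed by a block on normal hepatocyte division and a regenerative stimulus, so that initiated hepatocytes grow out as nodules. Most nodules of this kind remodel towards normal liver, and a minority persist and can progress to carcinoma. Krt19 is normally a cytokeratin of bile duct cells, and its presence in hepatocyte lesions is a known mark of a progenitor-like state. Advancing liver carcinomas are known for mitotic activity and for a capillary-like blood supply, of which Cdk1, the kinase that drives entry into mitosis, and Esm1, a proteoglycan secreted by sprouting endothelial cells, are familiar transcripts.

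The labels and the transcript of Krt19 did not match in every nodule. Nodules 1 to 5 are labelled krt-19+ and nodules 15 to 19 krt-19-, yet both sets were above the threshold on the arrays, at 11.64 to 13.15 and 11.49 to 12.96. Nodules 20 to 24, labelled krt-19+, were below it. The 2 nearest nodules outside the threshold were at 10.60 and 10.50. Krt19 in the aHCC was 9.08, 13.59, 9.09, 11.91, 10.73, 11.48, 13.02, 12.82 and 13.00 in samples 28 to 36, against a lowest value of 11.49, a median of 12.09 and a highest of 13.15 in the chosen nodules. The aHCC thus spread on both sides of the threshold. Controls 25 to 27 had 7.38 to 8.76 and controls 11 to 14 had 7.76 to 8.05. Because Krt19 chose the nodules, it has no test here, and any gene whose level follows Krt19 among nodules was raised in the nodules by that choice. Values against all 20 nodules are therefore given beside many of the results.

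aHCC 29 stood apart from the others. Its mean correlation with the other aHCC over all features was 0.797, against 0.943 to 0.960 for the other 8, and it had the fewest detected probes, 8689. Low in aHCC 29 were Pon1, a serum paraoxonase made by hepatocytes, at 7.75 against 14.21 to 15.29 in the other aHCC, and Apoa2, an apolipoprotein, at 7.82 against 13.89 to 14.75. High in it were Fst, which encodes the activin antagonist follistatin, at 13.90 against 7.33 to 9.29, and Krt20, an intestinal-type cytokeratin, at 13.15. Pon1, Apoa2, Fst, Krt20 and, below, Vtn were chosen after their values were seen. Alb, the albumin gene, was in contrast at 14.39 to 15.41 in all 9 aHCC, against 14.59 to 15.45 in the nodules, and Tf, the transferrin gene, at 14.53 to 15.22 in aHCC, against 14.60 to 15.41 in the nodules, although both genes lie near the top of the intensity scale, at 15.54. Other hepatocyte transcripts were low in aHCC 29: Ttr, the transthyretin gene, was at 10.81 against 14.67 to 15.18 in the other aHCC, and Vtn, the vitronectin gene, at 8.59 against 14.19 to 15.26. In the other 8 aHCC these 4 genes were at 14.19 or above. Results are given with and without aHCC 29 where it changed them.

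Of 10962 features tested, 2797 (25.5%) differed between aHCC and Krt19-high nodules at an adjusted p under 0.05 in limma with Benjamini-Hochberg adjustment; 1403 (12.8%) were higher and 1394 (12.7%) lower in aHCC. Without aHCC 29 the count was 4671 (42.6%), and 2788 of the 2797 were called again in the same direction. The lesion groups lie in separate stretches of sample numbers, which no label calls a batch. As a check, the controls of the same stretch were subtracted from each group: controls 25 to 27 from the aHCC and controls 11 to 14 from the nodules. After that subtraction the sign was kept for 2329 of the 2797 features (83.3%), and 51 of all features (0.465%) were called, or 341 (3.11%) without aHCC 29. Features called in the same direction before and after subtraction numbered 9 higher (0.0821%) and 22 lower (0.201%), with 1 called in opposite directions (0.00912%). Without aHCC 29 they numbered 106 (0.967%) and 173 (1.58%), with 7 opposite (0.0639%). Against all 20 nodules 3716 features (33.9%) were called, against nodules 1 to 5 alone 1127 (10.3%) and against nodules 15 to 19 alone 1815 (16.6%). With only 3 and 4 control arrays, the subtracted differences have wider errors, and a feature not called after subtraction was not thereby shown to be unchanged.

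Esm1, the endothelial proteoglycan endocan, was higher in every aHCC than in any of the nodules. Its log2 intensity was 8.67 at the lowest, 9.50 at the median and 10.25 at the highest aHCC, against 7.41, 7.63 and 8.06 in the nodules. The groups did not overlap, a separation shown in that direction by 1.76% of all features. The mean difference was 1.78 (SE 0.16), a 3.44-fold higher intensity with an adjusted p of 3.61e-07. Control livers had 7.08 to 7.33 in samples 25 to 27 and 7.06 to 7.42 in samples 11 to 14, so the difference after subtraction was 1.81 (SE 0.28, adjusted p = 0.00278). Against all 20 nodules it was 1.90.

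Cdk1 was higher in 8 of the 9 aHCC than in every nodule. It lay at 8.02, 10.53 and 11.41 (lowest, median, highest) in aHCC, against 8.48, 8.62 and 9.46 in the nodules. The lowest value was that of aHCC 29, and the next aHCC was at 9.49, so that without aHCC 29 the groups did not overlap, as for 4.31% of all features in that direction. Over all 9 aHCC the difference was 1.43 (SE 0.32), or 2.70-fold (adjusted p = 0.00231). Controls 25 to 27 had 7.68 to 7.82 and controls 11 to 14 had 7.67 to 8.30. After subtraction of the controls the difference was 1.68 (SE 0.55) and was not called (adjusted p = 0.205); without aHCC 29 it was 1.95 and was called (adjusted p = 0.00365).

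**Figure D1:**
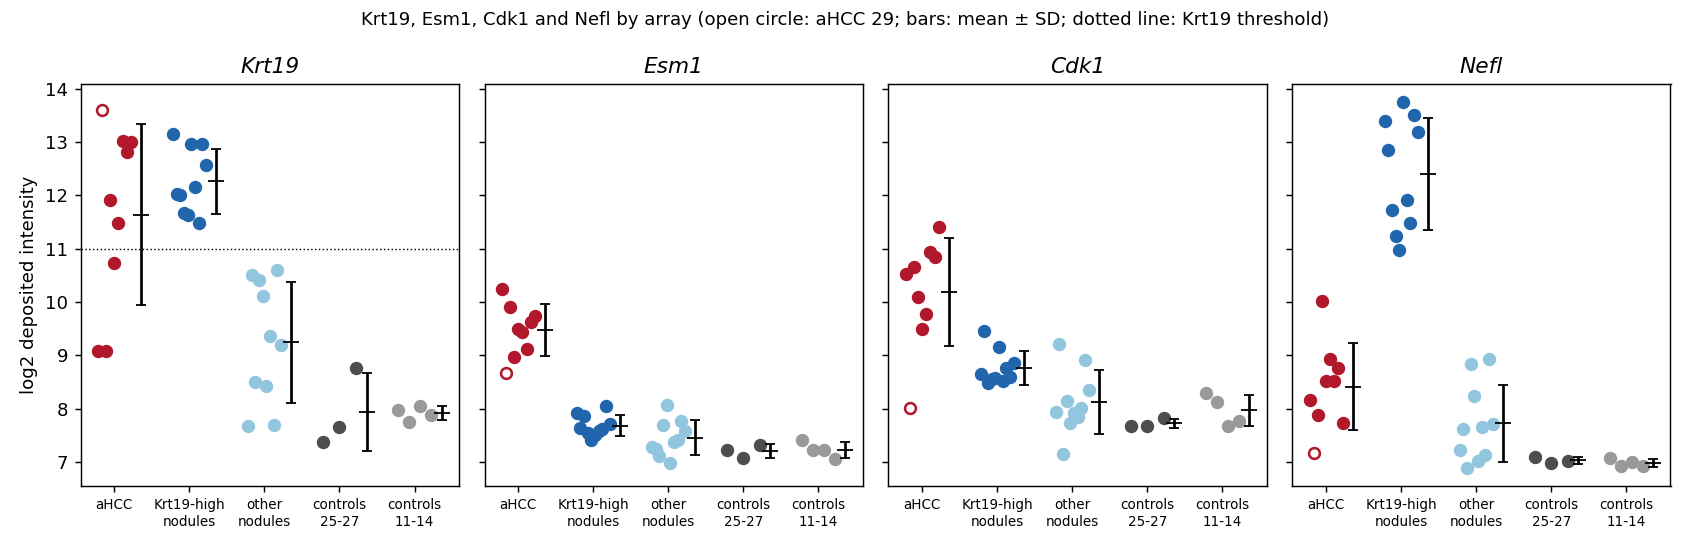
Log2 intensity of Krt19, Esm1, Cdk1 and Nefl on each array (1 point per array) in aHCC, Krt19-high nodules, the other nodules, controls 25 to 27 and controls 11 to 14; bars give mean ± SD, the open circle is aHCC 29 and the dotted line is the Krt19 threshold of 11. Esm1 in aHCC (8.67 to 10.25) sits above the Krt19-high nodules (7.41 to 8.06), Cdk1 does so in 8 of the 9 aHCC, and Nefl is high in the Krt19-high nodules (10.97 to 13.75).

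Other genes of the cell division cycle were also higher in aHCC. Of a list of 57 cell cycle and mitosis genes, 39 were tested, of which 17 (43.6%) were higher in aHCC and 0 lower, against 12.8% higher and 12.7% lower among all features. The median difference of the 39 was 0.34, against 0.0003 for all features. Without aHCC 29, 26 were higher and 1 lower. The 1 that was lower was Ccnd1, the D-type cyclin of growth-factor-driven cell cycle entry, at -0.71 without aHCC 29 (adjusted p = 0.0356) and -0.48 with it (adjusted p = 0.303).

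Ube2c, the ubiquitin-conjugating enzyme of the anaphase-promoting complex, had 7.31, 8.78 and 9.76 in aHCC, against 7.59, 7.74 and 7.87 in the nodules. The groups overlapped through aHCC 29 alone, and the difference was 0.85 (SE 0.21, adjusted p = 0.00505). Prc1, a microtubule bundler of the spindle midzone, differed by 0.84 (adjusted p = 0.00528), and Cdc20, an activator of the anaphase-promoting complex, by 0.76 (adjusted p = 0.00627). Kif11, the kinesin that separates spindle poles, and Aurkb, a kinase of chromosome segregation, each differed by 0.69 (adjusted p = 0.00304 and 0.00414). Pcna, the sliding clamp of DNA replication, differed by 0.62 (adjusted p = 0.0379).

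None of the tested Mcm2 to Mcm7 transcripts, subunits of the replicative helicase, was called, with differences of -0.01 to 0.34, and Foxm1, a transcription factor of mitotic genes, differed by 0.12 (adjusted p = 0.0631). Without aHCC 29, Mcm2 (0.36) and Mcm6 (0.37) were called higher. After subtraction of the controls, 0 cell cycle genes were called with all arrays and 6 higher without aHCC 29, against 1.2% of all features higher. The median of the list after subtraction was 0.36, close to the 0.34 before it. The Krt19-high nodules were themselves above the other 10 nodules in mean for 35 of the 39 genes, and against all 20 nodules 29 genes were called higher in aHCC, where the background is 18.2% higher.

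Promoter sequence is shown for 2 of the called mitotic genes, because many mitotic genes share the cell cycle homology region TTTGAA and nearby CCAAT boxes. The windows are 300 bases long and lie mostly upstream of the RefSeq gene start in GRCr8, written on the gene's strand from 5′ to 3′, and capitals mark TTTGAA and CCAAT on either strand (the reverse forms are TTCAAA and ATTGG). Cdk1 is at chr20:19265043-19265342, plus strand, and Cdc20 at chr5:137255750-137256049, minus strand.
Cdk1: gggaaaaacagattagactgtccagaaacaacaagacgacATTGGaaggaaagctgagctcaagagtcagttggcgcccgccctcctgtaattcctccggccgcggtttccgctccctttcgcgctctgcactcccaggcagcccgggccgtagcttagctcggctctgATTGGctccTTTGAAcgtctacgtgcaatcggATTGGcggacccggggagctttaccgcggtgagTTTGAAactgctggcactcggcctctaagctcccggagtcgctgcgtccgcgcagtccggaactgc
Cdc20: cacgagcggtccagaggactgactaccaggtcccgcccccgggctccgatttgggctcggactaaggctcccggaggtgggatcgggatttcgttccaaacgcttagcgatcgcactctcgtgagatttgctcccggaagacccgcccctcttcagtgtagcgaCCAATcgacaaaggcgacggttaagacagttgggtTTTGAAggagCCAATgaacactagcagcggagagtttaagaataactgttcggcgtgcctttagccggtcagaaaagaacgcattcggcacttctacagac
The Cdk1 window held 2 TTTGAA and 3 CCAAT matches and the Cdc20 window 1 and 2. Of the 17 called cell cycle genes, 14 had a promoter in the RefSeq table. TTTGAA was found in 8 of the 14 (57.1%), against 18.1% of all 27457 promoters of that length, and CCAAT in 11 of the 14 (78.6%), against 37.7%. Both were present in 7 of the 14 (50%), against 7.25%. The windows of Aurka and Bub1, also called, held 0 of either. The genes come from a list of cell cycle genes, and its uncalled members were not compared. The shares therefore describe the list and not the calls. A match describes only the letters of the window.

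**Figure D2:**
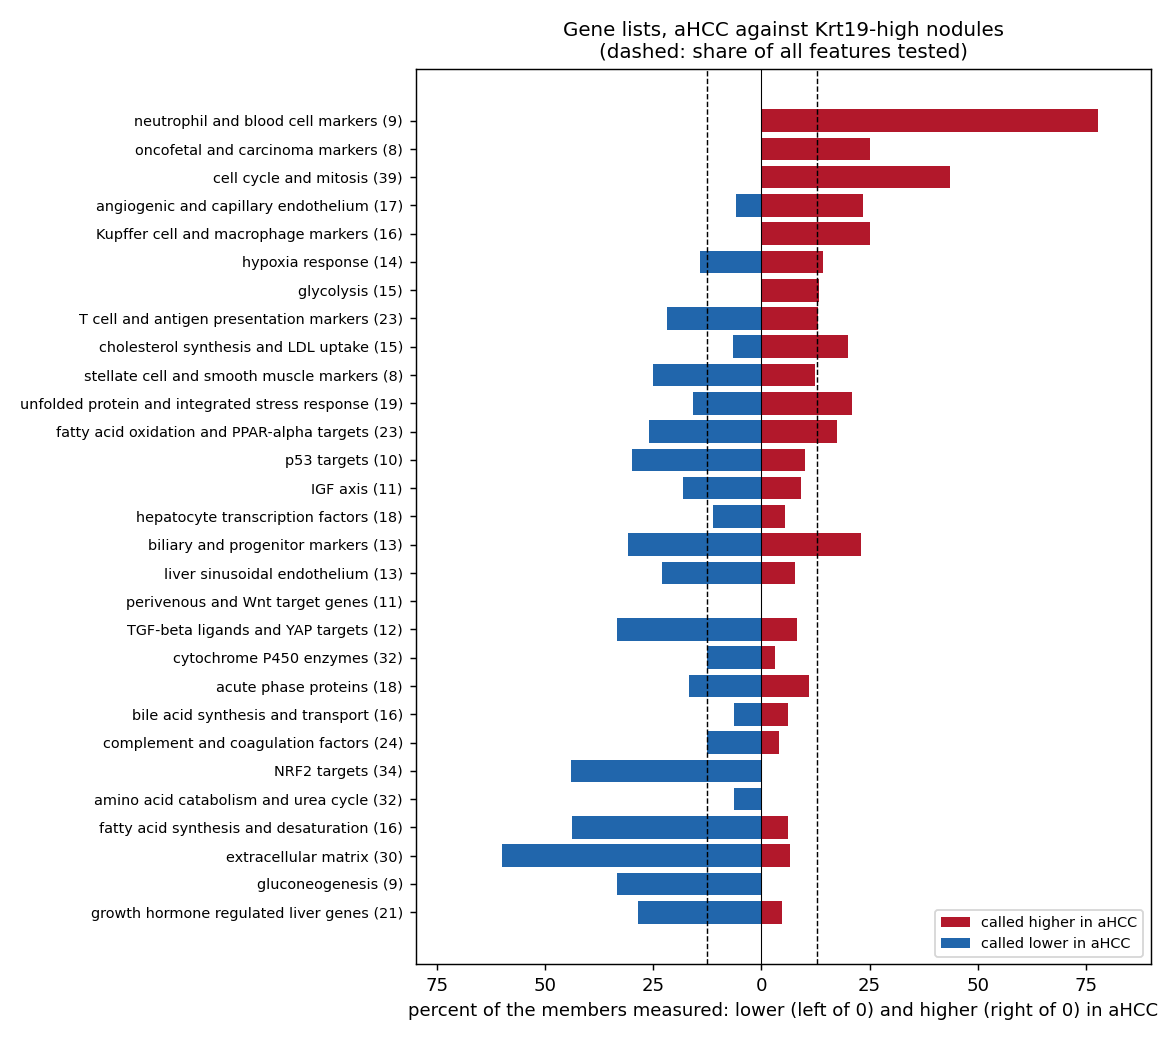
Percentage of the tested members of each gene list that were called higher or lower in aHCC than in Krt19-high nodules (limma, adjusted p under 0.05); dashed lines give the share of all features, 12.8% higher and 12.7% lower. Blood cell and cell cycle lists lie on the higher side, and extracellular matrix, NRF2 target and fatty acid synthesis lists on the lower side.

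Haemoglobin transcripts, which come from red blood cells in the tissue, were lower in the Krt19-high nodules than in any aHCC. Hba-a1, an alpha-globin, lay at 14.48, 15.04 and 15.48 in aHCC, against 11.84, 12.90 and 13.59 in the nodules. The groups did not overlap, and both sets of control livers, at 14.11 to 15.13 and 14.82 to 15.15, were also above the nodules. The difference was 2.13 (SE 0.21), or 4.39-fold (adjusted p = 9.14e-07), and after subtraction it was 2.40 (SE 0.38, adjusted p = 0.0035). The beta-globins Hbb and Hbb-b1 differed by 2.65 and 2.97 (adjusted p = 5.62e-06 and 2.05e-06), also with no overlap. Globin probes may bind more than 1 member of the family, so these 3 are not independent.

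Of 15 neutrophil and blood cell genes, 9 were tested, with a median of 0.94. Of these, 7 (77.8%) were higher, against 12.8% of all features. Ahsp, the chaperone of alpha-globin, differed by 0.94 (adjusted p = 0.00344), while Slc4a1, the anion exchanger of red cell membranes, lay at 7.21 to 7.60 in aHCC, against 7.24 to 7.65 in the nodules, and was not called. Summed over the list, the log2 level was 15.39 to 16.66 in 8 aHCC and 15.05 in aHCC 29, against 13.06 to 14.35 in the nodules. Controls 25 to 27 had sums of 15.01 to 16.53 and controls 11 to 14 of 15.60 to 15.93. The part of blood content in the other differences was not tested. In microdissected tissue, fewer cells of a type and less RNA per cell cannot be told apart, here or below.

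Of 30 angiogenic and capillary endothelial genes, 17 were tested, with 4 higher, 1 lower and a median of 0.18. Esm1 is 1 of the 4, so 3 of the other 16 (Apln, Aplnr and Emcn) were higher, against 12.8% of all features. The 1 lower gene was Col4a1. Emcn, the endothelial sialomucin endomucin, had 8.53, 9.88 and 11.25 in aHCC, against 8.68, 9.03 and 9.38 in the nodules, and differed by 1.03 (SE 0.25, adjusted p = 0.00546). The overlap was due to aHCC 29, the lowest array. Aqp1, a water channel found in capillaries and bile ducts, was counted in the biliary list and not in this one. Aqp1 had 8.93, 9.87 and 9.98 in aHCC, against 8.34, 8.70 and 9.17 in the nodules. It differed by 0.97 (adjusted p = 3.09e-05) and was also called after subtraction, at 1.06 (adjusted p = 0.0429). Vwf, the clotting factor stored by endothelium, differed by -0.01 (adjusted p = 0.981). The endothelial genes Pecam1 and Stab2 had no named probe, and Cdh5 was under the detection filter. Of 20 genes of liver sinusoidal endothelium 13 were tested, with a median of -0.08. Of these, 1 (7.69%) was higher and 3 (23.1%) lower, against 12.8% and 12.7% of all features. The higher one was Clec4m, and the lower ones were Bmp2, Gata4 and Maf.

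Among named genes called lower both before and after subtraction of the controls, Nefl and Agtpbp1 had the largest falls before subtraction. Nefl, the light neurofilament subunit of neurons, lay at 7.17, 8.52 and 10.02 in aHCC, against 10.97, 12.38 and 13.75 in the nodules. No value overlapped, as for 1.87% of all features in that direction, and intensity in aHCC was lower by 15.9-fold (log2 -3.99, SE 0.41, adjusted p = 1.43e-06). Controls were at 6.98 to 7.10 and 6.93 to 7.07, and after subtraction the difference was -4.04 (adjusted p = 0.00594). The other 10 nodules had 6.90, 7.64 and 8.93, below every Krt19-high nodule, and against all 20 the difference was -1.65 and was not called (adjusted p = 0.129).

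The same held for Agtpbp1, a peptidase that trims glutamates from tubulin tails. It lay at 8.5, 8.76 and 9.52 in aHCC, against 9.75, 10.78 and 11.49 in the Krt19-high nodules, with no overlap and a difference of -1.83 (SE 0.19, adjusted p = 2.01e-06). After subtraction it was -1.85 (adjusted p = 0.00649), but against all 20 nodules it was -0.68 (adjusted p = 0.233). Abcb1b, a drug efflux pump, differed by -1.15 from the Krt19-high nodules (adjusted p = 0.000552), by -2.15 after subtraction (adjusted p = 0.0183) and by 0.39 from all 20 nodules (adjusted p = 0.679), a change of sign. Mybl1, a Myb family transcription factor, differed by -1.23 (adjusted p = 8.28e-05), by -2.12 after subtraction (adjusted p = 0.00278) and by -0.54 from all 20 nodules (adjusted p = 0.173). Its controls differed too, by 0.90 between the stretches (adjusted p = 0.00742).

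Other falls were shared with the nodules that Krt19 did not choose. Hsd17b2, the enzyme that inactivates oestradiol and testosterone, had 11.93, 12.53 and 12.92 in aHCC, against 13.80, 14.35 and 14.61 in the Krt19-high nodules and 14.37, 14.77 and 14.90 in the other 10. No aHCC overlapped with either set of nodules. The difference from the Krt19-high nodules was -1.80 (SE 0.12, adjusted p = 9.54e-09), and it was -1.81 after subtraction (adjusted p = 0.0156) and -1.98 against all 20. Controls 25 to 27 had 12.76, 14.57 and 14.74, and controls 11 to 14 had 13.84 to 14.44. The lowest of controls 25 to 27 thus lay within the aHCC range, and the subtracted difference rests on the mean of these uneven controls.

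Myadm, a membrane protein associated with lipid rafts, differed by -1.76 (SE 0.14, adjusted p = 8.81e-08), by -1.49 after subtraction (adjusted p = 0.00594) and by -1.35 from all 20 nodules. Gria3, a subunit of AMPA glutamate receptors, differed by -1.35 (SE 0.10, adjusted p = 1.71e-08) and by -1.24 after subtraction (adjusted p = 0.00278). Ankh, a transmembrane exporter linked to pyrophosphate, differed by -1.35 and by -1.15 after subtraction (adjusted p = 3.18e-06 and 0.0496). Manba, the lysosomal beta-mannosidase, differed by -0.94 and by -0.86 after subtraction (adjusted p = 2.65e-06 and 0.0297). Gria3, Ankh and Manba were also called against all 20 nodules, at -0.91, -1.29 and -0.56. The aHCC mean minus that of the other 10 nodules was -0.95 for Myadm, -0.47 for Gria3, -1.24 for Ankh and -0.17 for Manba. All of them overlapped with those other nodules. Myadm had 9.06 to 10.30 in aHCC against 9.95 to 10.98, and Gria3 had 7.36 to 7.96 against 7.65 to 8.60. Ankh had 7.45 to 9.03 against 8.90 to 10.28, and Manba had 8.96 to 9.68 against 9.28 to 9.99. The falls of Gria3 and Manba were thus mostly from the Krt19-high nodules. Each of Myadm, Gria3, Ankh and Manba separated the aHCC from the Krt19-high nodules without overlap.

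Also called before and after subtraction were Cryl1, a lambda-crystallin with dehydrogenase activity (-1.38 and -2.30), Rcan2, a calcineurin regulator (-1.18 and -1.71), and Ddah1, which degrades methylated arginines (-0.75 and -1.34). Cryl1 was at -0.85 against all 20 nodules (adjusted p = 0.0403), while Rcan2 at -0.30 and Ddah1 at -0.36 were not called (adjusted p = 0.548 and 0.117). The aHCC mean minus that of the other 10 nodules was -0.31 for Cryl1, 0.58 for Rcan2 and 0.02 for Ddah1. On the higher side stood Atf4, the transcription factor of the integrated stress response, with 10.55, 10.78 and 11.32 in aHCC, against 10.14, 10.44 and 10.53 in the nodules. Its groups did not overlap, and the difference was 0.49 (SE 0.09, adjusted p = 0.000645) and 1.19 after subtraction (SE 0.18, adjusted p = 0.00278). The larger value after subtraction came with controls that were themselves lower in samples 25 to 27 than in samples 11 to 14, by -0.70 (adjusted p = 0.0133). Angptl4, an inhibitor of lipoprotein lipase, differed by 0.49 and by 1.27 after subtraction (adjusted p = 0.00972 and 0.0239), with controls at 10.08 to 10.93 and 11.20 to 11.62. It differed by -0.0018 from all 20 nodules (adjusted p = 0.995) and from the other 10 nodules by -0.50, the opposite direction, and a second probe differed by 0.08 from the Krt19-high nodules. Ngdn, Tacr1 and Hist2h3c2 were also called in both, at 0.41, 0.40 and 0.36 before subtraction.

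**Figure D3:**
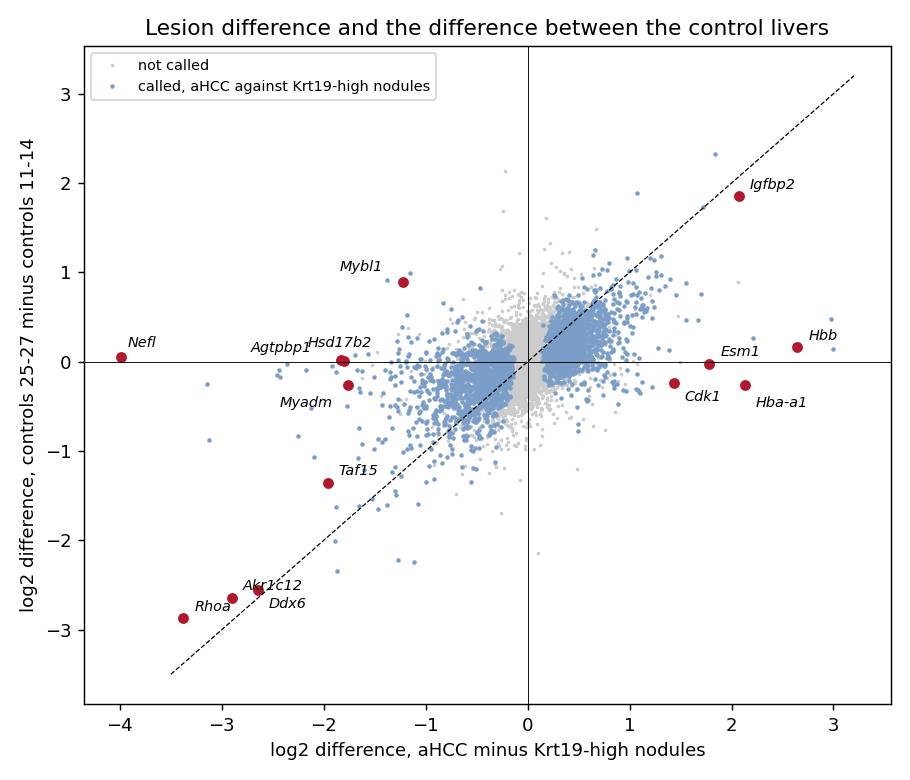
Log2 difference of aHCC minus Krt19-high nodules (horizontal) against that of controls 25 to 27 minus controls 11 to 14 (vertical) for all tested features. Features called between aHCC and Krt19-high nodules are blue and the others grey, with labelled genes in red. The dashed line is where both differences are equal. Esm1, Nefl and Hsd17b2 lie near 0 on the vertical axis, whereas Rhoa, Akr1c12 and Ddx6 lie near the dashed line.

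Some of the largest falls were also found between control livers. Between the sets of controls 779 features (7.11%) were called, and 411 of the 2797 features (14.7%) were called in the same direction there. Rhoa, a small GTPase of the actin cytoskeleton, lay at 8.77, 9.39 and 10.22 in aHCC, against 12.59, 12.77 and 13.11 in the nodules. Controls showed the same gap, at 9.26 to 9.62 in samples 25 to 27 and 12.10 to 12.47 in samples 11 to 14. The difference of -3.38 (adjusted p = 9.64e-12) became -0.51 after subtraction (adjusted p = 0.529). Akr1c12, an aldo-keto reductase, fell by 2.90 and by 0.26 after subtraction, and a second probe of it differed by -0.37 before subtraction.

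Ddx6, an RNA helicase of processing bodies, differed by -2.65 and by -0.09 after subtraction, and Taf15, an RNA-binding protein, by -1.96 and -0.61; neither was called after it, nor was Akr1c12. On the higher side Igfbp2, a binding protein of insulin-like growth factors, had 9.64, 10.55 and 12.56 in aHCC, against 7.75, 8.17 and 9.91 in the nodules, and differed by 2.07 (adjusted p = 0.000163). Controls 25 to 27 ranged from 8.22 to 10.94 and controls 11 to 14 from 7.71 to 8.09, which left 0.22 after subtraction (adjusted p = 0.976). Sample stretch, age of the rats and lesion stage cannot be told apart for such genes.

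Gstp1, the placental glutathione transferase that marks rat preneoplastic foci, was near the top of the intensity scale in both lesion groups. It lay at 14.74, 15.51 and 15.54 in aHCC, against 14.79, 15.45 and 15.54 in the nodules, where 15.54 was the highest value on the arrays. The groups overlapped throughout, with a difference of -0.08 (SE 0.12, adjusted p = 0.656), and a second probe differed by -0.38. Controls had 9.84 to 9.90 in samples 25 to 27 and 8.14 to 8.98 in samples 11 to 14, so the subtracted difference of -1.30 (adjusted p = 0.00625) came from the controls.

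NRF2 targets, the antioxidant and conjugation genes driven by the oxidative stress sensor NRF2, were lower in aHCC than in the Krt19-high nodules. Of 40 listed, 34 were tested, with a median of -0.28. Of these, 0 were higher and 15 (44.1%) lower, against 12.8% and 12.7% of all features. Without aHCC 29, 1 was higher and 15 were lower, against 20.8% and 21.8%. Gclc, the catalytic subunit of the first enzyme of glutathione synthesis, had 12.96, 13.98 and 15.00 in aHCC, against 14.90, 15.10 and 15.34 in the nodules. Only the highest aHCC reached the range of the nodules, and the difference was -1.17 (SE 0.21, adjusted p = 0.000366). Abcc3, an export pump for conjugated compounds, had 9.85, 11.10 and 12.23 in aHCC, against 12.03, 12.31 and 12.73 in the nodules. The highest aHCC was aHCC 29, without which the groups did not overlap, as for 5.88% of all features in that direction, and the difference was -1.27 (SE 0.20, adjusted p = 0.000111).

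Further members followed. Ugt1a6, a glucuronosyltransferase, differed by -1.19 (adjusted p = 0.00345). Gsr, which regenerates reduced glutathione, differed by -1.10 (adjusted p = 0.00123), Sqstm1, the autophagy receptor p62, by -1.05 (adjusted p = 0.00905) on its brightest probe, and Txnrd1, the cytosolic thioredoxin reductase, by -0.82 (adjusted p = 0.0275). The 2 other probes of Sqstm1 had the opposite sign, at 0.18 and 0.31, so its direction is uncertain. Nqo1, a quinone reductase and the most widely used NRF2 readout, had 12.50, 13.26 and 14.31 in aHCC, against 13.56, 13.95 and 14.27 in the nodules, and differed by -0.65 (SE 0.16, adjusted p = 0.00551). Hmox1, the haem oxygenase, differed by 0.60 and was not called (adjusted p = 0.245).

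Set against normal liver and the other nodules, these levels were intermediate. Nqo1 in controls was 9.27 to 9.48 and 9.53 to 9.78, below every aHCC. For 28 of the 34 targets the aHCC mean was below that of the Krt19-high nodules, for 27 it was above that of the other 10 nodules, and 21 lay between the means of the 2 nodule sets. Against all 20 nodules only 2 targets were higher and 4 lower, with a median of 0.13, where the background is 18.2% higher and 15.7% lower. Gclc (-0.43), Abcc3 (-0.74), Ugt1a6 (-0.46), Gsr (-0.35) and Txnrd1 (-0.12) were then not called (adjusted p = 0.341, 0.0753, 0.402, 0.469 and 0.813). Nqo1 then differed by 0.17 (adjusted p = 0.732) and Akr1b8, an aldo-keto reductase, by 1.10 (adjusted p = 0.177), against -0.44 from the Krt19-high nodules (adjusted p = 0.045). After subtraction of the controls 2 NRF2 targets were lower with all arrays and 6 without aHCC 29, against 0.301% and 1.92% of all features.

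**Figure D4:**
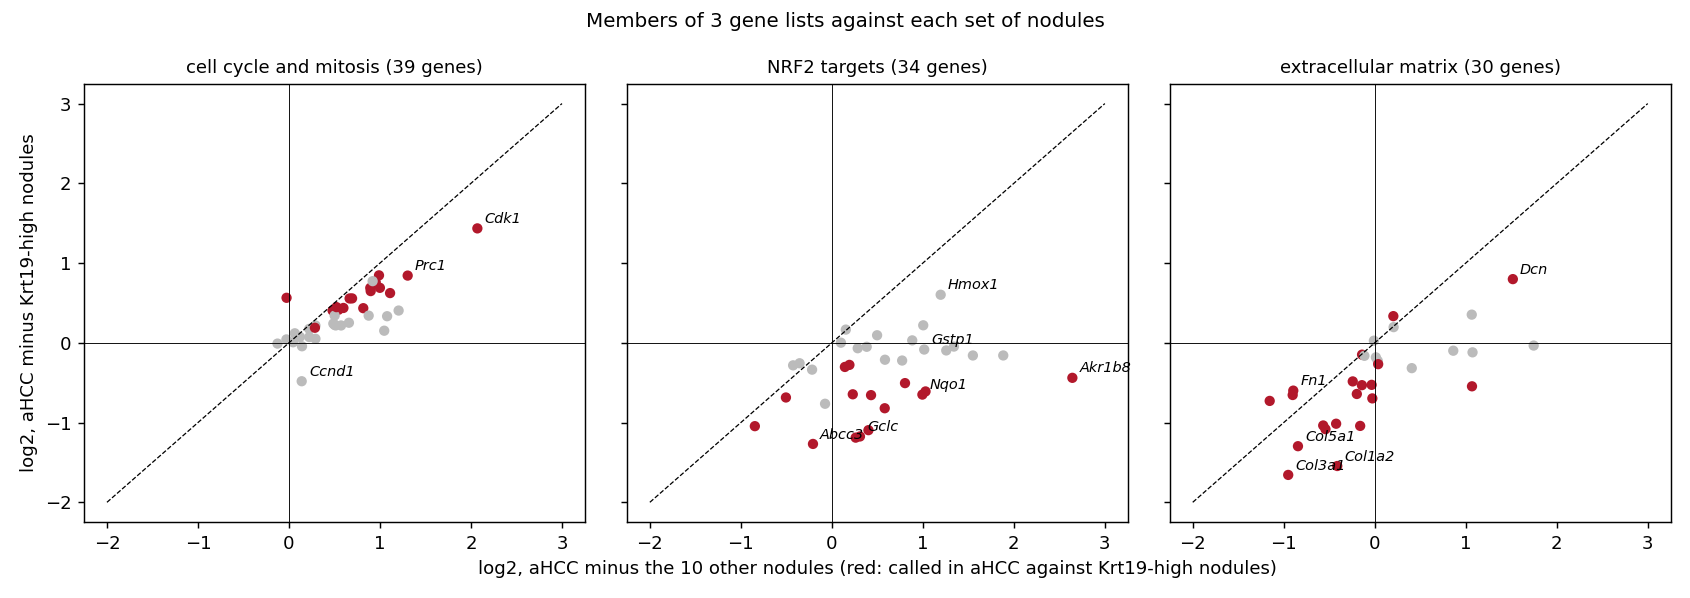
Mean log2 difference of aHCC from the 10 other nodules (horizontal) and from the Krt19-high nodules (vertical) for each tested gene of the cell cycle, NRF2 target and extracellular matrix lists; red marks genes called against the Krt19-high nodules. Of the 39 cell cycle genes 36 lie above 0 on each axis taken alone, whereas 21 of 34 NRF2 targets are above 0 on the horizontal and below 0 on the vertical axis.

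Extracellular matrix genes had the largest share of lower calls of all lists. Of 43 listed, 30 were tested, with a median of -0.51. Of these, 2 (6.67%) were higher and 18 (60%) lower, against 12.8% and 12.7% of all features. Col1a2, a chain of fibrillar type I collagen, had 10.67, 10.97 and 12.00 in aHCC, against 12.15, 12.62 and 13.32 in the nodules, with no overlap. The difference was -1.54 (SE 0.17, adjusted p = 3.11e-06), or -0.98 against all 20 nodules (adjusted p = 0.00194). Col3a1, of type III collagen, differed by -1.66 (adjusted p = 0.00016), Col5a1, of the type V collagen that nucleates fibrils, by -1.30 (adjusted p = 2.06e-06), and Col6a1, of the beaded-filament type VI collagen, by -1.04 (adjusted p = 9.66e-05).

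Col4a1, a chain of basement membrane collagen, differed by -0.70 (adjusted p = 0.00429; -0.36 against all 20 nodules, adjusted p = 0.0994), and Fn1, fibronectin, by -0.60 (adjusted p = 0.00577). The 2 genes that were higher were Dcn, the small proteoglycan decorin, at 0.80 (adjusted p = 0.0148), and Mmp9, a gelatinase, at 0.33 (adjusted p = 0.0171). Dcn differed by 1.10 between the controls (adjusted p = 0.0328) and by -0.31 after subtraction. Against all 20 nodules 13 of the 30 matrix genes were lower and 4 higher, where the background is 15.7% lower and 18.2% higher. After subtraction 0 were called with all arrays and 3 lower without aHCC 29.

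Markers of the cells that make matrix did not all move with the collagens. Of 16 stellate and smooth muscle genes 8 were tested, with 1 (12.5%) higher and 2 (25%) lower, against 12.8% and 12.7% of all features. Tagln, an actin-binding protein of smooth muscle and myofibroblasts, differed by 0.68 (adjusted p = 0.000837), Pdgfra, a receptor of fibroblasts, by -0.55 (adjusted p = 0.00712), and Cygb, the stellate cell globin, by -0.49 (adjusted p = 0.000366; -0.22 against all 20 nodules, adjusted p = 0.155). The defining genes Acta2, Lrat and Pdgfrb had no named probe. The summed level of the 8 was 11.22 to 12.20 in 8 aHCC and 12.39 in aHCC 29, against 11.69 to 12.38 in the nodules, with overlapping ranges. The part of stellate cell content in the collagen differences was not tested.

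Progenitor and oncofetal genes split by gene. Epcam, an adhesion molecule of bile duct and progenitor cells, had 8.86, 10.49 and 11.57 in aHCC, against 11.05, 11.43 and 12.08 in the nodules. The groups overlapped through aHCC 29, and the difference was -1.23 (SE 0.28, adjusted p = 0.00314). Cd24, a surface glycoprotein of progenitor cells, differed by -1.24 (adjusted p = 0.00117). Both were at -0.52 and -0.09 against all 20 nodules and were not called there (adjusted p = 0.233 and 0.904). Spp1, the secreted phosphoprotein osteopontin, and Tspan8, a tetraspanin of carcinoma cells, were instead higher, at 1.12 (adjusted p = 0.00896) and 1.38 (adjusted p = 0.00122). Of 22 biliary and progenitor genes, 13 were tested beside Krt19, with a median of -0.03. Of these, 3 (23.1%) were higher and 4 (30.8%) lower, against 12.8% and 12.7% of all features.

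Alpha-fetoprotein and glypican-3, the classic carcinoma markers, turned on single arrays. Afp had 9.00, 10.49 and 13.94 in aHCC, against 9.44, 9.88 and 10.30 in the nodules, and its highest value, that of aHCC 36, was well above the next, at 10.90. The difference was 0.92 (SE 0.40, adjusted p = 0.0996), and without aHCC 29 it was 1.14 and was called (adjusted p = 0.014). Control livers were above the aHCC median of Afp, at 10.69 to 10.78 in samples 25 to 27 and 10.76 to 10.93 in samples 11 to 14. The other 10 nodules had 10.04, 10.65 and 11.04, and the aHCC mean was 0.18 above theirs. The Krt19-high nodules were thus below normal liver for Afp. Gpc3, a cell surface proteoglycan, had 7.56, 9.71 and 10.42 in aHCC, against 8.51, 9.07 and 9.34 in the nodules. Its lowest value was again aHCC 29; the difference was 0.49 (adjusted p = 0.197), and 0.73 without that array (adjusted p = 0.000932).

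Several genes of the mature male rat hepatocyte were lower in aHCC than in the nodules. Cyp2c11, the male-specific P450 that growth hormone pulses maintain, lay at 7.06, 9.00 and 11.34 in aHCC, against 10.29, 12.29 and 13.90 in the nodules. The groups overlapped, both were below the controls at 14.90 to 14.98 and 14.97 to 15.51, and the difference was -3.15 (SE 0.58, adjusted p = 0.000538). Car3, a carbonic anhydrase abundant in male rat liver, differed by -2.44 (adjusted p = 0.00399), and Mup4l3, Mup4l4 and Mup4, the urinary protein genes, by -3.13, -2.42 and -2.36, with a second probe of Mup4l4 at -1.62. Probes for the urinary proteins and for the Cyp2c family may bind near-identical members, so these values are uncertain for any single gene. Stac3 and Sds, a serine dehydratase, differed by -2.13 and -2.09 (adjusted p = 0.00197 and 0.00622).

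As a list, 21 of 29 growth hormone regulated genes were tested, with 1 higher (4.76%) and 6 lower (28.6%), against 12.8% and 12.7% of all features. The median of the list was -0.63 with all arrays and -0.11 without aHCC 29, and after subtraction without that array it was -0.07. The 1 higher gene was Stat5b, the transcription factor that relays growth hormone pulses, at 0.44 (adjusted p = 0.000332). None of Cyp2c11, Car3, Mup4, Mup4l3, Mup4l4, Stac3 and Sds was called after subtraction.

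Lipid synthesis followed. Of 16 tested genes of fatty acid synthesis and desaturation, 7 were lower (43.8%) and 1 higher (6.25%), against 12.7% and 12.8% of all features. Fads1, a desaturase of long-chain fatty acids, had 7.60, 11.45 and 11.91 in aHCC, against 12.04, 12.47 and 12.91 in the nodules. The groups did not overlap, and the difference was -1.67 (SE 0.42, adjusted p = 0.00578), or -1.26 without aHCC 29, the lowest array. Fads2, the partner desaturase, differed by -1.13 (adjusted p = 0.0145) and Acly, which supplies cytosolic acetyl-CoA, by -1.08 (adjusted p = 0.000453). Controls differed in the same direction for Fads1, by -1.08 (adjusted p = 0.00149), and after subtraction it was -0.58 and not called. The 1 higher gene was Gpam, a glycerol-phosphate acyltransferase, at 0.41 (adjusted p = 0.0292).

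Counts for other hepatocyte functions depended on the nodules and on aHCC 29. Of 32 genes of amino acid catabolism and the urea cycle 0 were higher and 2 lower, against 12.8% and 12.7% of all features. Without aHCC 29 they were 4 higher and 8 lower, against 20.8% and 21.8%, and against all 20 nodules 0 higher and 17 lower, against 18.2% and 15.7%. Of 32 tested P450 genes 1 was higher and 4 were lower, with 5 and 4 without aHCC 29 and 1 and 10 against all 20 nodules. Of 16 genes of bile acid synthesis and transport 1 was higher and 1 lower, also without aHCC 29, with 0 and 6 against all 20. Of 11 perivenous and Wnt target genes 0 were called, with 2 higher and 1 lower without aHCC 29 and 0 and 2 against all 20. Of 18 hepatocyte transcription factors 1 was higher and 2 were lower, with 4 and 6 without aHCC 29 and 0 and 5 against all 20. The higher one was the pioneer factor Foxa1 (0.41, adjusted p = 0.00997; 0.13 against all 20, adjusted p = 0.494), and the lower ones included Cebpa (-0.46, adjusted p = 0.0241), which keeps hepatocytes quiescent. Controls for Cebpa ranged from 8.89 to 9.26 and 8.88 to 10.20, and after subtraction it was 0.04.

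Of 16 Kupffer cell and macrophage genes 4 (25%) were higher and 0 lower, against 12.8% and 12.7% of all features. Without aHCC 29, 7 were higher and 0 lower, against 20.8% and 21.8%. The summed log2 level of the list overlapped, at 14.38 to 15.40 in 8 aHCC and 13.73 in aHCC 29, against 14.38 to 15.06 in the nodules. Marco, a scavenger receptor of resident macrophages, differed by 1.10 (adjusted p = 0.0432; 0.67 against all 20 nodules, adjusted p = 0.121), with controls at 9.82 to 10.97 and 10.50 to 11.29, above the nodules at 7.61 to 9.00. Trem2, a receptor of lipid-associated macrophages, had 7.77, 9.01 and 9.98 in aHCC, against 7.45, 7.91 and 8.21 in the nodules, and differed by 0.95 (adjusted p = 0.00336). Of 23 T cell and antigen presentation genes 3 (13.0%) were higher, near the share of all features, and 5 (21.7%) lower. Without aHCC 29, 7 of them were higher and 6 lower, against 20.8% and 21.8% of all features. After subtraction 0 genes of either list were called, with or without aHCC 29. Among the lower genes, Tap2, of the peptide transporter that loads MHC class I, fell most, by 1.17 on the log2 scale (adjusted p = 3.98e-06), and Cd74, the MHC class II invariant chain, by 1.06 (adjusted p = 0.00657), or -0.52 against all 20 nodules (adjusted p = 0.182). The controls differed for Tap2 by -0.77 (adjusted p = 0.0181), and after subtraction it was -0.40 (adjusted p = 0.661).

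Some of the largest rises were carried by part of the aHCC. A2m, a protease inhibitor that rat liver makes in the acute phase, lay at 7.52, 9.48 and 13.65 in aHCC, against 7.36, 7.69 and 8.19 in the nodules. The highest was aHCC 29, and the difference was 2.21 (SE 0.65, adjusted p = 0.0166) with it and 1.75 without. S100a4, a calcium-binding protein of motile cells, was in contrast above the nodules in all 9 aHCC, at 8.54, 9.63 and 10.66, against 7.47, 7.94 and 8.21. It differed by 1.67 (SE 0.23, adjusted p = 3.08e-05), and by 1.2 after subtraction, where it was not called (adjusted p = 0.217). Hspb1, a small heat shock protein, differed by 1.70 (adjusted p = 0.000284), with a difference of 0.75 between the controls (adjusted p = 0.0158).

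**Figure D5:**
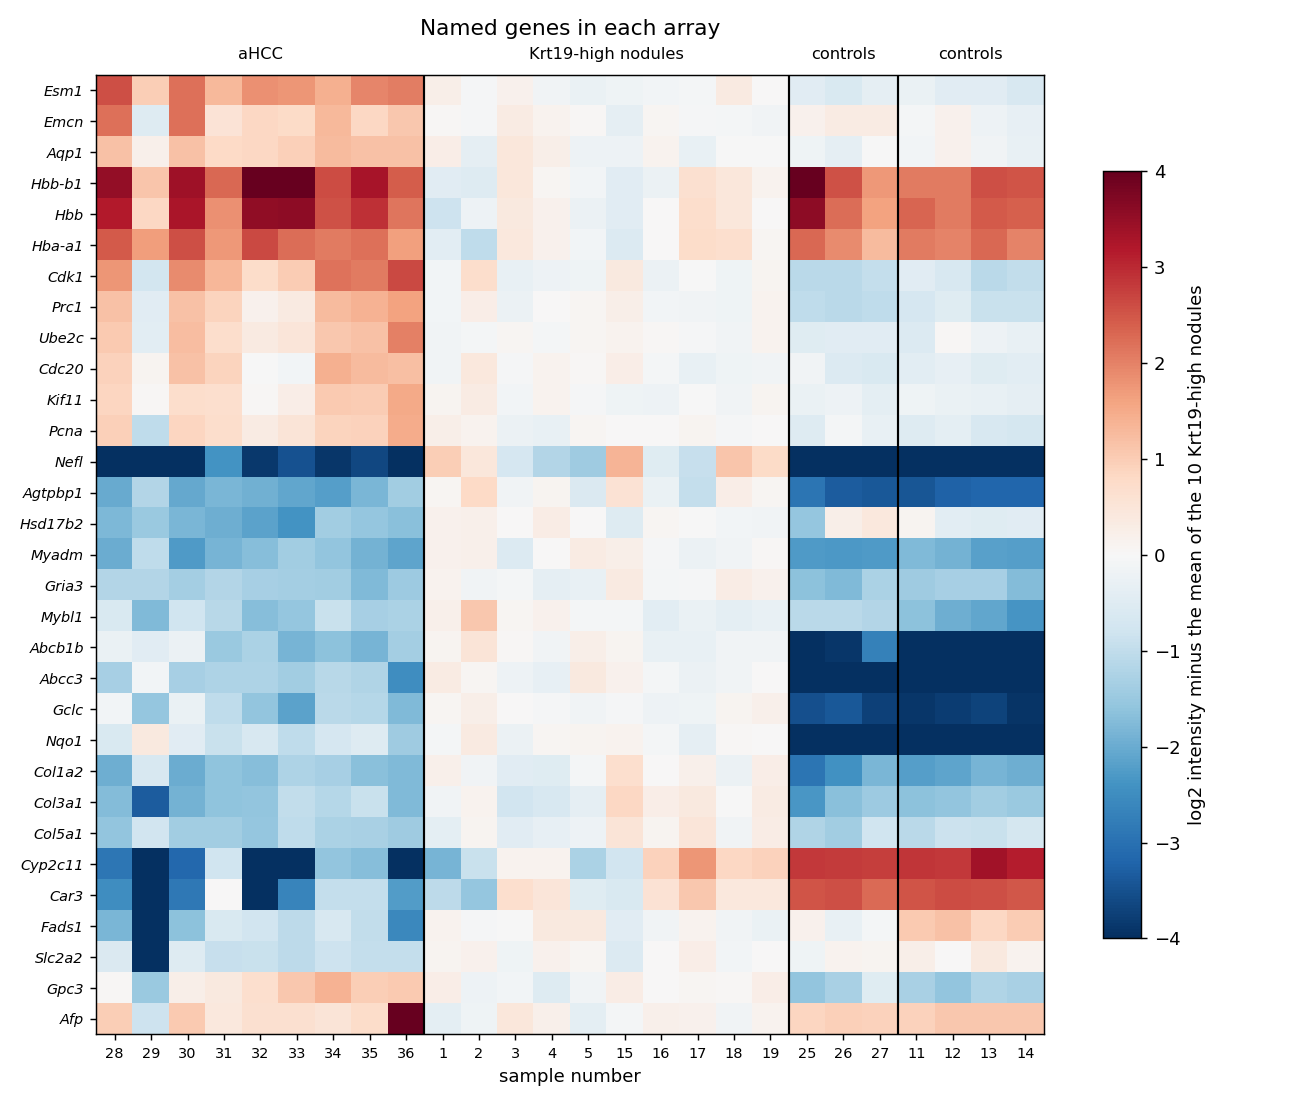
Log2 intensity minus the mean of the Krt19-high nodules for 31 named genes (down the page) on each array of aHCC, Krt19-high nodules, controls 25 to 27 and controls 11 to 14 (across), with colours limited at 4 above and below 0. The aHCC column for sample 29 departs from the other 8 in many genes.

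Placed in the order of the lesions, the marker genes followed different courses. Esm1 averaged 7.69 ± 0.20 in Krt19-high nodules (SD, n = 10), 9.48 ± 0.20 in adenomas (n = 4), 9.82 ± 0.54 in eHCC (n = 5) and 9.47 ± 0.49 in aHCC (n = 9), so the step lay between nodules and adenomas and the 3 later groups overlapped. Cdk1 averaged 8.76 ± 0.31, 10.07 ± 0.37, 9.92 ± 0.36 and 10.20 ± 1.01 in the same order, again with the step after the nodules. Hsd17b2 averaged 14.32 ± 0.23, 12.88 ± 0.37, 12.85 ± 0.19 and 12.52 ± 0.32. Nefl, by contrast, was high in eHCC: it averaged 12.40 ± 1.04, 10.14 ± 1.65, 12.24 ± 1.36 and 8.41 ± 0.82. Adenomas and eHCC entered no test given here.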

How the data were processed

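Total RNA of microdissected tissue was amplified to biotin-labelled cRNA and hybridised to single-colour Illumina rat arrays, and BeadStudio 3.0.19.0 was used, per the submitters' processing notes. The deposited table gives, for each of 48 arrays, an intensity and a detection p-value for each of 22523 probes; no source used here says how the authors normalized it. The deposited intensities had array medians of 159.0 to 159.6 and nearly equal distributions, so they were already scaled between arrays, and they were not background-subtracted, which compresses differences of dim genes. Array number limits the precision.

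Deposited intensities were taken to log2. Of all probes 13793 had 1 gene symbol and 8730 none; 13752 matched a RefSeq symbol. Probes with a deposited detection p-value under 0.05 on at least 5 of the 19 arrays were kept (11113), and the brightest probe stood for a gene, which left 10962 features (7909 symbols). Of these, 26 passed only through the aHCC and 90 only through the nodules. limma 3.58.1 (lmFit, eBayes without trend, R 4.3.3) was fitted on 19 arrays, two-sided, with Benjamini-Hochberg adjustment over all features and a call at an adjusted p under 0.05. The control-subtracted difference came from 1 fit of 4 groups on 26 arrays. The main and the control-subtracted limma fits were tested on simulated independent normal values, without a stretch effect or an outlying array. No label ties arrays to separate animals.

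Genes named are the 12 largest rises and falls among called symbols and up to 12 of each called in both fits. Only 9 features were called higher in both, so fewer than 12 rises were available there. The 2 largest of each direction per list were also named, as were Krt19, Esm1, Cdk1, Gstp1, Nqo1, Afp and Gpc3. Any others named were chosen after their values were seen. The lesion sets, gene lists and tests were chosen with earlier results of these data known. Alternatives were other Krt19 thresholds and nodule sets, sample stretch as a block, array weights, neqc, quantile normalization, other filters and probe rules, and leaving out each array.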

Additional observations from a re-analysis of the deposited data

Results flagged for a closer look

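These values lay far from the others of their group: the gap to the nearest array was above Dixon's critical value for the group size. Chance alone sets apart about 1 in 20 groups. Among the aHCC 29 of 116 values tested were set apart, 22 of them in aHCC 29, and among the Krt19-high nodules 11 of 115. aHCC 29 had 8689 detected probes and a mean correlation of 0.797 with the other aHCC. Its log2 intensity was low for the hepatocyte and metabolic genes Acox2 (8.12), Ass1 (11.44), Cyp4f4 (8.92), Fads1 (7.60), Foxa1 (7.14), Hamp (11.44), Mup4 (7.69), Mup4l4 (7.69) and Slc2a2 (7.89). It was also low for Ankh (7.45), Aqp1 (8.93), Col3a1 (7.15), Dnajb9 (7.80), Gpc3 (7.56) and Herpud1 (10.41), and high for Bmp2 (8.77), Col4a1 (10.24), Ddx6 (10.35), Maf (9.06) and Tpi1 (14.79).

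Among the other aHCC, sample 36 was set apart for Afp (13.94), Igfbp2 (12.56) and Pc (10.62), sample 28 for Gdf15 (9.73), sample 35 for Gria3 (7.36) and sample 30 for Stat5b (9.30) and Tap2 (8.13). Among the nodules, nodule 2 was set apart for Ankh (10.30), Maf (8.44), Mybl1 (10.82) and Pdgfra (8.91), and nodule 15 for Herpud1 (11.13), Hsd17b2 (13.80) and Slc2a2 (12.64). Nodule 5 was set apart for Gpam (7.25) and Tap2 (10.64), nodule 4 for Igfbp2 (9.91) and nodule 19 for Gstp1 (14.79).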

How the results depend on the processing

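For aHCC versus Krt19-high nodules, the count of 2797 called features ranged from 2474 to 4671 when each of the 19 arrays was left out in turn, and the highest value was the fit without aHCC 29. It was 1127 with nodules 1 to 5 alone, 1815 with nodules 15 to 19 alone, 5200 with array weights and 59 with the sample stretch as a fixed block over 48 arrays. Without aHCC 29 it was 4742 against all 20 nodules, 4698 with neqc and 286 with the fixed block. The other alternatives gave 2083 to 3716. For the control-subtracted difference, the count of 51 ranged from 19 to 341 over arrays left out: 341 without aHCC 29, 26 without control 11, 33 without control 12, 32 without control 26 and 19 without control 27. It was 9 with nodules 1 to 5 and controls 11 and 12, 4 with nodules 15 to 19 and controls 13 and 14, and 144 and 91 for these sets without aHCC 29. Among single genes, these differences changed sign. With a Krt19 threshold of 10 Akr1b8 was 0.10. Against all 20 nodules Abcb1b was 0.39, Akr1b8 1.10, Angptl4 -0.0018 and Nqo1 0.17, and without aHCC 29 Abcb1b was 0.30, Akr1b8 1.03 and Nqo1 0.042. Against nodules labelled krt-19+ Abcb1b was 0.31, Akr1b8 1.15, Cd24 0.089, Ctse 0.020 and Nqo1 0.14. With the fixed block Acox2 was 0.35, Cd3d -0.34, Cebpa 0.036, Dcn -0.31, Maf 0.16, Pc 0.030 and Tgfb1 -0.0044, and without aHCC 29 Acox2 was 0.51, C1r 0.026, Cd3d -0.30, Cebpa 0.13, Dcn -0.22, Dnajb9 0.015 and Maf 0.11. The cause was not tested. No setting moved the median of all features by over 0.1. No paired analysis was possible because the sample numbers are never shared between groups. Dim genes near background, such as Foxm1, Col1a1 or Mmp9, have compressed differences, and saturated ones, such as Gstp1, cannot show a rise.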

Other observations

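Of 9 genes of the circadian clock looked at, chosen after their values were seen and from no fixed list, 5 were called between aHCC and Krt19-high nodules. Of all features 25.5% were called, but a set chosen in that way cannot be compared with that share. Nr1d1, the clock repressor REV-ERB alpha, lay at 7.66, 7.98 and 8.41 (lowest, median, highest) in aHCC, against 9.12, 9.51 and 9.78 in the Krt19-high nodules, a difference of -1.50 with no overlap (adjusted p = 9.54e-09). Bmal1, the activator that Nr1d1 represses, was higher by 0.72 (adjusted p = 3.11e-06), Nfil3, a clock-linked repressor, was higher by 1.07 (adjusted p = 2.49e-05), and Usp2, a clock-controlled deubiquitinase, differed by -1.43 (adjusted p = 2.56e-05). Per2, a clock repressor, had 7.60 to 8.28 in 8 aHCC and 11.68 in aHCC 29, against 9.65 to 10.36 in the nodules. Per1, Dbp, Cry1 and Tef were not called. Per1, however, had 7.55 to 8.47 in 8 aHCC and 11.09 in aHCC 29, against 8.64 to 9.22 in the nodules. Bmal1 lay at 7.57 to 8.26 in aHCC and 7.16 to 7.55 in the nodules. Its controls had 7.89 to 8.61 in samples 25 to 27 and 7.85 to 8.11 in samples 11 to 14. Nfil3 lay at 9.70 to 10.97 in aHCC and 8.87 to 9.34 in the nodules. Its controls had 9.31 to 11.14 and 9.84 to 10.73. For both genes the aHCC were thus within or near the control range. Controls 25 to 27 had Nr1d1 at 7.89 to 10.21 and controls 11 to 14 at 9.18 to 9.66, and none of Nr1d1, Bmal1, Nfil3, Usp2 and Per2 was called after subtraction of the controls (adjusted p = 0.0944, 0.194, 0.15, 0.391 and 0.559); without aHCC 29 Nr1d1, Bmal1 and Per2 were called there (adjusted p = 0.028, 0.0271 and 0.000556). The time of day at which tissue was taken is not given in the labels, and its part was not tested.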
